A study of Mus musculus with 4 samples.

Results

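Described here are 8 genes of the Polycomb group in the medial ganglionic eminence (MGE) of the mouse embryo, across its progenitors and its neurons. They are 4 chromobox genes whose proteins are subunits of Polycomb repressive complex 1 (Cbx2, Cbx6, Cbx7 and Cbx8) and 4 genes of the core of Polycomb repressive complex 2 (Ezh1, Ezh2, Eed and Suz12). The list was given by gene name, with earlier results of these data known, and all 8 genes were found once among the 32285 genes of the files. Polycomb group proteins keep genes silent through chromatin. Polycomb repressive complex 2 (PRC2) methylates lysine 27 of histone H3 through one of its alternative enzymes, Ezh2 or Ezh1, and needs Eed and Suz12 for its activity. Chromobox proteins bind the methylated histone and bring in Polycomb repressive complex 1 (PRC1). In the developing forebrain PRC2 is best known for holding progenitors to their timetable, with Ezh2 typical of dividing cells and Ezh1 of cells that have stopped dividing.

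On GRCm38, by the GENCODE M21 annotation, Cbx2 (chr11:119022962-119031270, plus strand) and Cbx8 (chr11:119036305-119040969, minus) are close to each other, Cbx6 is at chr15:79823896-79834688 (minus) and Cbx7 at chr15:79915807-79971119 (minus). Ezh1 is at chr11:101191115-101226463 (minus), Suz12 at chr11:79993106-80034123 (plus), Ezh2 at chr6:47530139-47595341 (minus) and Eed at chr7:89954654-89980983 (minus). Cbx7 overlaps Apobec3 and Eed overlaps E230029C05Rik, each on the opposite strand and each counted as a gene of its own.

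The tissue came from e14.5 embryos of St18 (-/+) parents on a C57/BL6 and ICR mixed background, with the MGE pooled by genotype before dissociation and 10x Genomics chemistry. There were 2 libraries labelled St18(-/-), called null, and 2 labelled wildtype, called WT. The St18 protein is a transcription factor with zinc fingers, and the null allele lacks loxP-flanked exons that a germline Cre removed in the whole animal. How many embryos of which sex went into a pool was not stated, so p-values measure the spread between these 4 libraries, and replicate numbers follow the order of the samples. Lists of 4 values run from null replicate 1 and 2 to WT replicate 1 and 2.

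The libraries held 70991150 to 92984713 unique molecular identifiers (UMIs), and 6631, 3878, 4511 and 4011 barcodes had at least 3000 UMIs and at most 10% mitochondrial UMIs. From clusters made without the Polycomb genes, 2882, 1553, 1849 and 1590 cells were called progenitor-like (progenitors for short), split into radial glia-like and basal progenitor-like cells, and 3248, 2103, 2427 and 2193 neuron-like (neurons). The MGE factor Nkx2-1 lay between 404 and 446 UMIs of the gene per 1000000 UMIs of the class (CPM) in progenitors, and Lhx6, the postmitotic MGE factor, between 352 and 509 CPM in neurons. Isl1, listed as a marker of the lateral ganglionic eminence, was at 89.6 to 119 CPM in neurons. The pallial marker Neurod6 was at 0 to 28.0 CPM there. Clusters 14 (580 cells, led by Ebf1, Crabp1 and Isl1) and 26 (61 cells, led by Neurod6) were kept among the neurons. The neurons are thus those of the dissection and not MGE neurons alone. Every pair of libraries shared 4 to 11 cell barcodes, where 2.29 to 4.402 were expected by chance. St18 itself was at 25.1 and 77.9 CPM in neurons of the libraries labelled null and at 43.7 and 59.6 CPM in those labelled WT, so null replicate 2 exceeded both. The counted tags may lie outside the removed exons. The study's text describes transcript left in null samples, with a lower level in their neurons than in wildtype. Here null replicate 1 lay below both WT libraries in neurons, while null replicate 2 went the opposite way. With the null libraries split in direction, the St18 level checks no label. The comparisons by genotype are therefore also given without null replicate 2. Cells with at least 3 UMIs of Xist, a transcript of female cells, made up 35.1% and 64.3% of the progenitors and neurons of the null libraries and 0% in both WT libraries. Genotype and the share of female cells therefore went together, and cells with at most 1 Xist UMI and at least 1 UMI from the Y chromosome (summed over Kdm5d, Uty, Ddx3y and Eif2s3y), called male, were also tested alone.

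Detection set the limits for the rest. Ezh2 was found in 92.9% to 96.1% of progenitors and 75.5% to 88.5% of neurons, and Suz12 in 68.4% to 82.3% and 40.3% to 55.7%. Eed was found in 30.7% to 46.6% of progenitors and 13.3% to 23.1% of neurons. For Cbx2 the shares were 20.3% to 37.0% and 7.13% to 14.4%, for Cbx6 25.2% to 45.7% and 19.6% to 38.6%, and for Cbx8 8.57% to 11.5% and 9.39% to 13.8%. Cbx7 alone was near the detection limit in both classes, defined as a UMI in under 5% of the cells of every library. It had a UMI in 1.98%, 3.86%, 1.62% and 1.45% of progenitors, the last with a 95% exact Clopper-Pearson interval of 0.919% to 2.16%, and in 1.29%, 2.43%, 1.15% and 1.505% of neurons. These shares rested on 62, 64, 30 and 25 UMIs in progenitors and 42, 53, 28 and 34 UMIs in neurons. With every cell thinned to 3000 UMIs, Cbx7 was in 0.325% to 1.03% of progenitors and 0.476% to 1.003% of neurons, and Ezh1 in both classes and Cbx8 in progenitors joined it under 5%. Without null replicate 2, the deepest library per cell with medians of 11985 UMIs in progenitors and 8228 in neurons, Ezh1 in progenitors was under 5% as well. Intervals cover counting error only.

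Background was measured in 2 ways. Free RNA and any expression of their own cannot be told apart in erythroid-like cells, of which 39.9% were called G1. They held a UMI of Ezh2 in 17 of 153 cells (11.1%), of Suz12 in 13 (8.50%), of Eed, Cbx2 and Cbx6 in 3 each (1.96%), of Cbx8 in 2 (1.31%) and of Cbx7 in 1 (0.654%), at median depths of 9932 to 13003 UMIs. Ezh1 was in 0 of 153. For a count of 0 a limit of 3 counts was set, here a share of 1.96% of cells with a UMI, which is not an exact interval. The shares of Cbx7 in neurons of 3 libraries thus lay within a percentage point of the erythroid share, on 1 erythroid cell. Barcodes under 100 UMIs held 1.05 to 3.82 CPM of Cbx7, a range that contains each of its 8 class values, and 254 to 328 CPM of Ezh2. Such an overlap was not particular to Cbx7. These barcodes held 7.98 to 13.9 CPM of Cbx8, beside 9.48 to 11.7 in progenitors. For Eed they held 29.9 to 33.3 CPM, beside 25.1 to 31.2 in neurons. For Cbx2 they held 14.6 to 22.7 CPM, beside 12.9 to 18.3 in neurons. Cbx6 was at 33.8 to 42.0 CPM in these barcodes, beside 35.0 to 53.9 in progenitors and 40.1 to 60.7 in neurons. Ezh1 was at 2.96 to 4.86 CPM, beside 4.83 to 6.91 in progenitors. The range of Ezh2 contains its level in neurons of both WT libraries, 294 and 296 CPM. No reading of Cbx7 below rests on shares of cells.

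**Figure D1:**
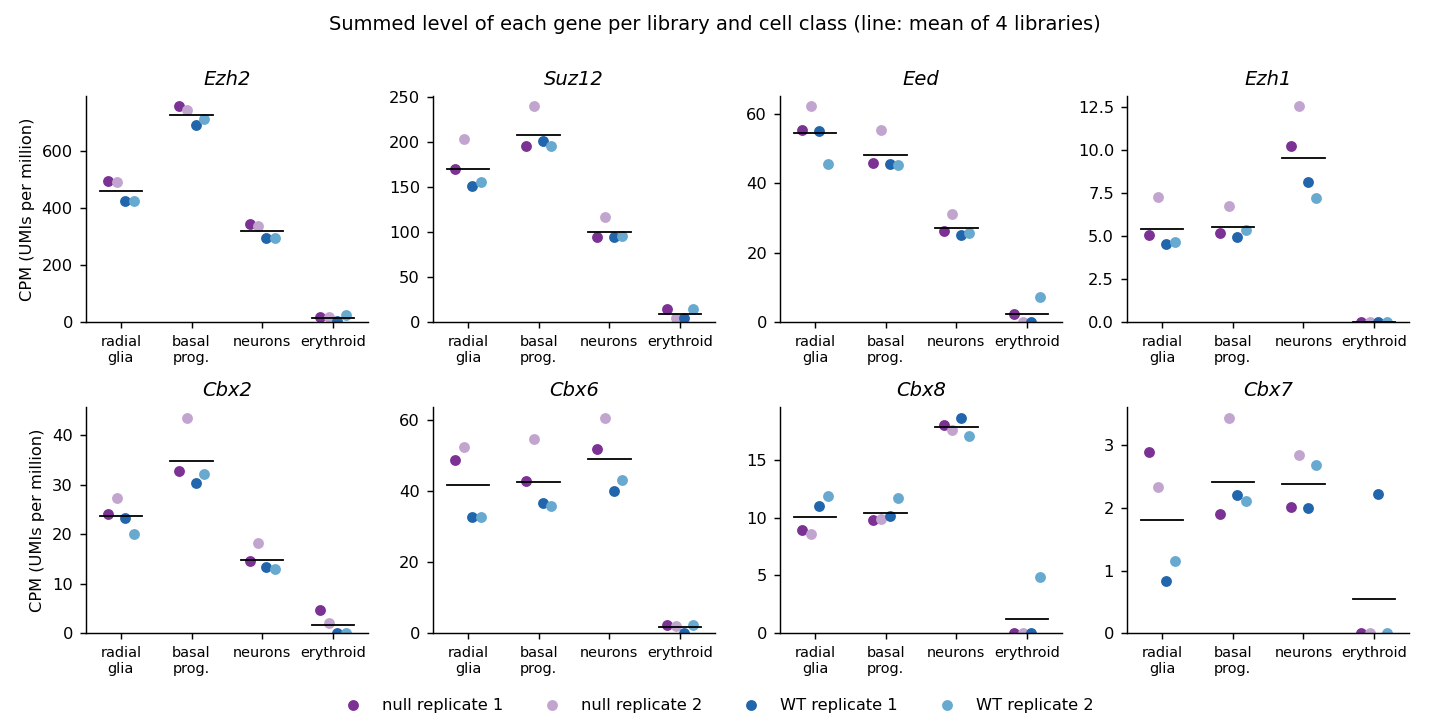
Level of the 8 genes in CPM (vertical axes, each from 0) summed over the cells of a class in each library; each point is 1 library and each line the mean of 4 libraries. Ezh2, Suz12, Eed and Cbx2 lie lower in neurons than in basal progenitors in every library, Ezh1 and Cbx8 lie higher, and the points of Cbx7 reach at most 3.44 CPM.

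Neurons were compared with progenitors first, to ask how the complexes differ between these stages. The PRC2 core genes Ezh2, Suz12 and Eed and the PRC1 gene Cbx2 fell from progenitors to neurons by 2.11, 2.03, 1.92 and 2.19 times, while Ezh1 and Cbx8 rose by 1.71 and 1.70 times. Cbx6 rose by a small step and Cbx7 did not pass the test. Of the 8 genes, 3 were higher and 4 lower in neurons by the quasi-likelihood test of edgeR (Benjamini-Hochberg adjusted p under 0.05, library as a block), beside 80.4% of all 13756 genes tested. A call in this comparison was therefore the rule for any gene. With each library left out in turn, null replicate 2 included, the 7 calls kept their direction and passed.

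Ezh2, the main methyltransferase of the complex, was at 674, 664, 612 and 636 CPM in progenitors and at 342, 338, 294 and 296 CPM in neurons. The ranges stood far apart, with means of 646 ± 28.1 and 317 ± 25.9 CPM (SD, n = 4), and the log2 fold change was −1.08 (SE 0.039, adjusted p = 4.55e-15). Suz12, which holds the complex together, was at 188, 228, 187 and 185 CPM in progenitors and at 94.6, 116, 94.5 and 96.2 CPM in neurons. Null replicate 2 was the highest library in both classes, and the log2 fold change was −1.02 (SE 0.035, adjusted p = 1.84e-15). Eed, the subunit that binds the methylated histone, was at 48.9, 57.5, 48.4 and 45.5 CPM in progenitors and at 26.2, 31.2, 25.1 and 25.6 CPM in neurons. It fell by 0.94 on the log2 scale (SE 0.051, adjusted p = 1.95e-12). The 3 genes fell in 4 of 4 libraries and by like amounts, between 0.83 and 1.10 on the log2 scale in every library.

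Ezh1, the alternative enzyme, went the other way. It was at 5.16, 6.91, 4.83 and 5.16 CPM in progenitors and at 10.3, 12.6, 8.14 and 7.20 CPM in neurons, from 69 to 145 UMIs and 91 to 234 UMIs per library. The ranges did not overlap, and Ezh1 rose by 0.78 on the log2 scale (SE 0.10, adjusted p = 1.28e-06). Per 100 UMIs of Ezh2, UMIs of Ezh1 numbered 0.766, 1.04, 0.789 and 0.812 in progenitors and 3.004, 3.72, 2.76 and 2.43 in neurons. This ratio of UMIs was higher in neurons in 4 of 4 libraries, with a two-sided exact permutation p = 0.125, the smallest that 4 libraries allow. With G1 cells alone, chosen after the data were seen, it was 4.11, 3.44, 3.61 and 2.95 in progenitors and 3.06, 3.71, 2.75 and 2.49 in neurons, lower in the neurons of 3 libraries. G1 progenitors held 877196 to 2002303 UMIs of all genes per library, with Ezh1 at 7.98 to 12.5 CPM. Their ratios therefore rest on few UMIs of Ezh1, and the difference in G1 was not tested.

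Of the chromobox genes, Cbx2, whose protein compacts chromatin, was at 30.1, 38.5, 28.3 and 29.0 CPM in progenitors and at 14.53, 18.3, 13.4 and 12.9 CPM in neurons. It fell in 4 of 4 libraries, at −1.13 on the log2 scale (SE 0.059, adjusted p = 1.31e-12). Cbx8, which can take its place in PRC1, was at 9.50, 9.48, 10.4 and 11.7 CPM in progenitors and at 18.0, 17.5, 18.6 and 17.0 CPM in neurons. The neurons of the 4 libraries lay close together, at 17.8 ± 0.688 CPM (SD, n = 4), and the log2 fold change was 0.77 (SE 0.079, adjusted p = 3.49e-08). UMIs of Cbx8 per 100 UMIs of Cbx2 went from 33.3 ± 6.86 to 123 ± 19.1 (SD, n = 4), higher in neurons in 4 of 4 libraries, again at the smallest exact permutation p of 0.125. With G1 cells alone it went from 71.9 ± 22.9 to 124 ± 17.9 (SD, n = 4), still higher in neurons in 4 of 4 libraries.

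Cbx6 was at 44.7, 53.9, 35.5 and 35.0 CPM in progenitors and at 51.9, 60.7, 40.1 and 43.1 CPM in neurons. The classes overlapped across libraries, though Cbx6 was higher in neurons within 4 of 4, at 0.17 on the log2 scale (SE 0.045, adjusted p = 0.00243). This call was lost with every cell thinned to 3000 UMIs (adjusted p = 0.243) and without the library block (adjusted p = 0.242). Cbx7 was at 2.21, 3.09, 1.81 and 1.87 CPM in progenitors and at 2.01, 2.84, 1.999 and 2.69 CPM in neurons. It was higher in neurons in 2 libraries and lower in 2, with a log2 fold change of 0.00 and a 95% interval of −0.35 to 0.36 (adjusted p = 0.985).

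Promoter sequence is shown for the 3 PRC2 core genes that fell together and for Ezh1, which rose. Each is the 250 bases before the RefSeq start site, from RefSeq on GRCm38.p6, written 5′ to 3′ on the gene's strand: Ezh2 at chr6:47595031-47595280 (minus strand), Suz12 at chr11:79992856-79993105 (plus strand), Eed at chr7:89980977-89981226 (minus strand) and Ezh1 at chr11:101226464-101226713 (minus strand). Capitals mark a word of the E2F motif, the family of factors known from promoters of cell cycle genes.
Ezh2: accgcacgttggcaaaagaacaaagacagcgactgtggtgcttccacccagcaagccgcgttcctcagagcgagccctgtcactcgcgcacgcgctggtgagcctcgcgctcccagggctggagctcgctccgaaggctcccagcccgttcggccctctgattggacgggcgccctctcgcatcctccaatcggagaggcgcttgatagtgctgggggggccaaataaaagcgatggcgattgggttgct
Suz12: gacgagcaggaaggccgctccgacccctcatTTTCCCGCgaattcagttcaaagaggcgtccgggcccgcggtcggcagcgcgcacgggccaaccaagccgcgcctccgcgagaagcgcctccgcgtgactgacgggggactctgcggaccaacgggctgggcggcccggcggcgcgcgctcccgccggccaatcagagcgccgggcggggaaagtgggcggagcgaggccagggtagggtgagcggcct
Eed: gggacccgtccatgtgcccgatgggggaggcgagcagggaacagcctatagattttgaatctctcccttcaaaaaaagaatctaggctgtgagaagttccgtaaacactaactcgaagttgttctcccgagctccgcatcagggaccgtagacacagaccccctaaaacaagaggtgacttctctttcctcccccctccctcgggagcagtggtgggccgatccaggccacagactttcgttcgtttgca
Ezh1: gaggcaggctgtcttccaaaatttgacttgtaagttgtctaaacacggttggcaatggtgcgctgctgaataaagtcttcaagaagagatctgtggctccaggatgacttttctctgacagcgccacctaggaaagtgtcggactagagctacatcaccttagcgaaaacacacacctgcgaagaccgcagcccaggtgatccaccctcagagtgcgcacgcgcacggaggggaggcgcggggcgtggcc
The words searched on both strands were TTTCGCGC, TTTGGCGC, TTTCCCGC and TTTGCCGC, which do not contain each other. Among the 7 members with a promoter in the table, Suz12 alone held a match, TTTCCCGC, beginning 219 bases before the start, while 1.86% of 32851 promoters of this length held one. CCAAT on either strand had 3 matches in Ezh2, 1 in Suz12, 0 in Eed and 0 in Ezh1, with 33.8% of all promoters holding one. The observed to expected ratio of CpG was 0.910 in Ezh2, 1.10 in Suz12, 0.652 in Eed and 0.738 in Ezh1, above the median of 0.373 over all promoters. The matches describe letters in these windows. By the GENCODE annotation the window of Ezh2 lies inside the gene, which begins at chr6:47595341 on the minus strand. The window of Cbx7 lies inside its gene as well. For these 2 genes the letters are therefore not upstream of the GENCODE start.

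The fall of Ezh2, Suz12, Eed and Cbx2 from progenitors to neurons depended on which progenitors were compared. Cell cycle phase was called per cell from the S and G2M gene sets of Seurat, which hold no member. Of 7874 progenitors, 790 (10.0%) were called G1, against 97.6% of neurons. The G1 call is a cut on a score: 135 of the 790 lay within 0.05 of it, as did 160 progenitors called S or G2M. Progenitors in G1 had a median of 6421 UMIs and the others 9347. Mki67 was at 73.1 ± 12.6 CPM in the G1 cells, 1265 ± 322 in G2M progenitors and 37.1 ± 14.4 in neurons (SD, n = 4). Mki67 belongs to the G2M gene set, so its low level in G1 cells follows from the call and is no check of it. The neuron marker Dcx stood between G2M progenitors and neurons, at 313 ± 49.3 CPM in G1 cells against 204 ± 41.2 and 909 ± 150 (SD, n = 4). The part of depth and of Dcx-rich cells in the comparison was not tested beyond the fit without cluster 10 given below.

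Ezh2 was at 304, 303, 282 and 270.2 CPM in G1 progenitors, far below the 652 to 725 CPM of S and the 630.2 to 702 CPM of G2M progenitors. The G1 values lay within the 254 to 328 CPM of barcodes under 100 UMIs. Neurons in G1 held 338, 331, 294 and 294 CPM, above the G1 progenitors in 4 of 4 libraries. Against G1 progenitors the log2 fold change of neurons was 0.14 (95% interval 0.03 to 0.24, adjusted p = 0.0204), opposite to the −1.08 against all progenitors. This fit and the others against G1 progenitors took all neurons, of which 97.6% were called G1, while the CPM beside them are of neurons in G1. Suz12 was at 89.5 ± 9.81 CPM in G1, 205 ± 24.9 in S and 206 ± 21.2 in G2M progenitors, beside 99.0 ± 9.68 in neurons in G1 (SD, n = 4). Its fall likewise was not seen against G1 progenitors, with a log2 fold change of 0.15 (95% interval 0.00 to 0.30, adjusted p = 0.0804).

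Eed was at 32.1 ± 4.10 CPM in G1, 57.6 ± 7.42 in S and 47.1 ± 4.43 in G2M progenitors, and at 26.9 ± 2.52 in neurons in G1 (SD, n = 4). It kept its direction, with −0.25 on the log2 scale (95% interval −0.49 to −0.01, adjusted p = 0.0751). Cbx2 was at 17.9 ± 4.96, 37.6 ± 4.82 and 28.9 ± 5.08 CPM in the 3 phases and at 14.52 ± 2.22 in neurons in G1, with −0.30 (adjusted p = 0.116). Ezh1, which had risen against all progenitors, was at 10.3 ± 1.84 CPM in G1 progenitors, 5.59 ± 0.347 in S and 4.81 ± 1.58 in G2M, and at 9.51 ± 2.26 in neurons in G1 (SD, n = 4). Its log2 fold change was −0.10 (95% interval −0.52 to 0.32, adjusted p = 0.706).

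The chromobox genes Cbx8 and Cbx6 were called higher in neurons than in G1 progenitors taken as a whole. Cbx8 was at 12.1 ± 1.88 CPM in G1 progenitors and 17.8 ± 0.633 in neurons in G1, with a log2 fold change of 0.58 (95% interval 0.23 to 0.93, adjusted p = 0.00465). Cbx6 was at 35.3 ± 11.5 and 48.8 ± 9.27 CPM, with 0.45 (95% interval 0.23 to 0.67, adjusted p = 0.000470). Cbx7 had an interval of −0.67 to 1.27. In all, 3 of the 8 were called against G1 progenitors (Ezh2, Cbx6 and Cbx8, all higher in neurons), beside 53.9% of all 12369 genes tested.

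The G1 progenitors were not one kind of cell. Basal progenitors made up 59.5% of them, and 44.8% were in cluster 10, led by Hist1h2bc, Dll3 and Dll1 among others, in which 45.0% of cells were called G1. In radial glia cluster 18 (387 cells, led by Olig1, Bcan and Fabp7) 58.1% were called G1, beside 0% to 9.27% in the other radial glia clusters. In basal cluster 24 (102 cells, Gsx1 and Cdkn1c among its leading genes) it was 96.1%, beside 0% to 2.23% in basal clusters other than 10. Comparisons in G1 are thus also comparisons of these clusters, and phase and cluster were not told apart. Without cluster 10, a setting chosen after the data were seen, Dcx fell to 143 ± 25.1 CPM in the G1 progenitors, and Ezh2 was at 260.4 ± 17.9 CPM (SD, n = 4). The log2 fold change of Ezh2 was then 0.37 (adjusted p = 6.39e-06), of Eed −0.37 (adjusted p = 0.0312) and of Cbx6 0.40 (adjusted p = 0.00809), beside 52.7% of genes called. Cbx8 missed the threshold (0.51, adjusted p = 0.05005), and Suz12, Cbx2, Ezh1 and Cbx7 were at 0.12, −0.21, −0.08 and −0.18. Radial glia in G1 were lower still in Ezh2, at 220, 244, 186 and 216 CPM, below the neurons of their own library in 4 of 4 libraries. For Cbx8, radial glia in G1 were at 15.8, 7.48, 22.1 and 16.2 CPM, and the log2 ratio of neurons to them was 0.18, 1.23, −0.24 and 0.07, so that neurons were higher in 3 of 4 libraries. Radial glia in G1 held 370424 to 883639 UMIs of all genes per library, and so few of Cbx8.

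**Figure D2:**
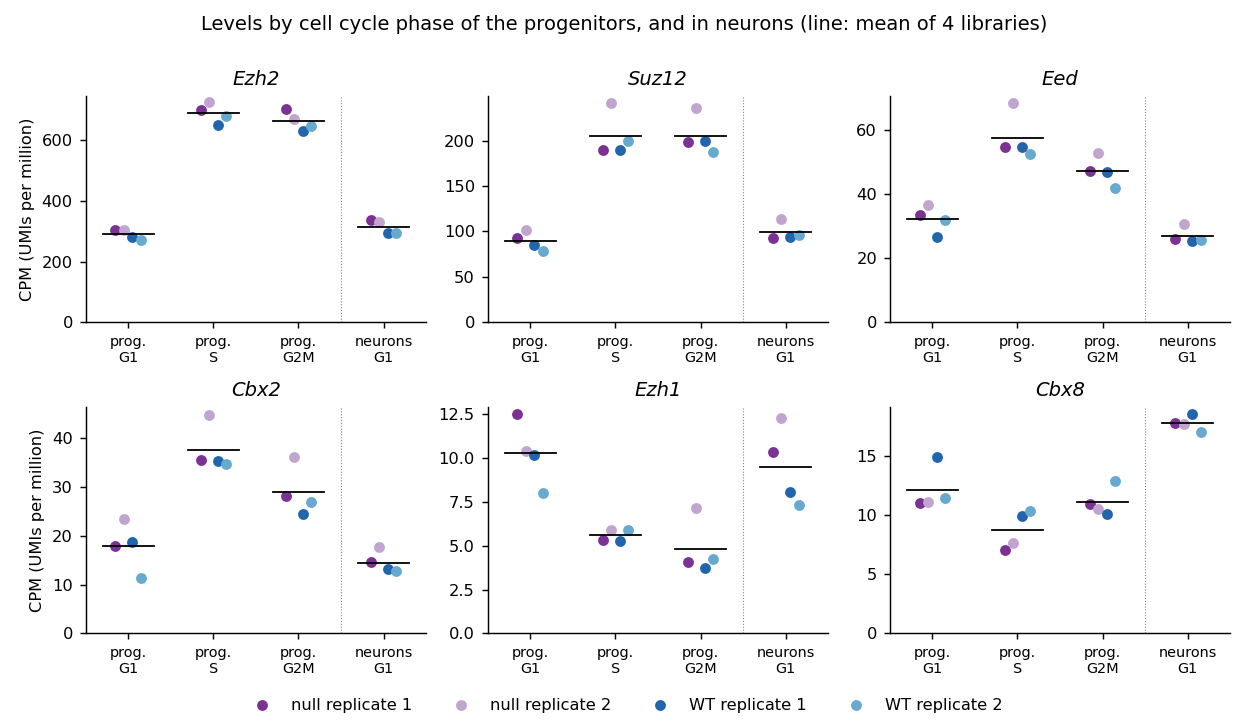
Levels of 6 genes in CPM (vertical axes, each from 0) in progenitors called G1, S or G2M and, right of the dotted line, in neurons called G1; points are libraries and lines means of 4 libraries. The mean of G1 progenitors lies nearer to that of neurons than to those of S and G2M progenitors for Ezh2, Suz12, Eed, Cbx2 and Ezh1, but not for Cbx8. Ezh2, Suz12 and Cbx8 are higher in neurons than in G1 progenitors of every library, Suz12 by little in null replicate 1 (93.3 against 92.4 CPM).

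**Figure D3:**
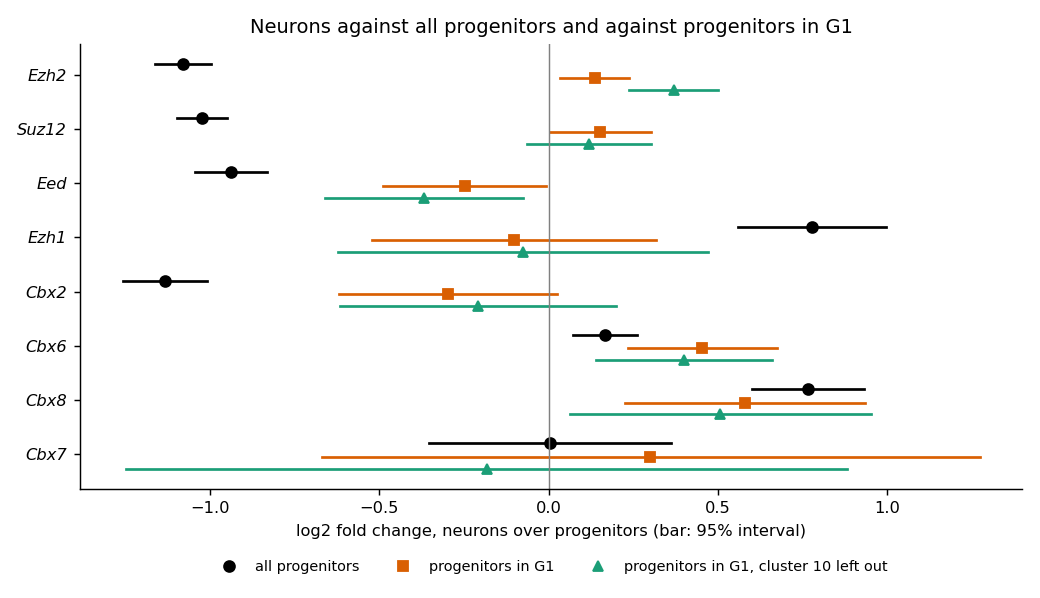
Log2 fold change of neurons over progenitors (horizontal axis) with its 95% interval for each gene, against all progenitors (circles), those in G1 (squares) and those in G1 without cluster 10 (triangles). The circles of Ezh2, Suz12, Eed and Cbx2 lie between −1.13 and −0.94 and their squares between −0.30 and 0.15, while Cbx8 and Cbx6 stay right of 0 in all 3.

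Within progenitors, basal progenitors were compared with radial glia, the stem cells from which they arise. Ezh2, Cbx2 and Suz12 were higher in basal progenitors, and 4 of the 8 passed the test (3 higher, 1 lower), beside 65.5% of all 12560 genes tested (32.3% higher, 33.2% lower). Ezh2 was at 492, 491, 425 and 424 CPM in radial glia and at 754, 743, 688 and 709 CPM in basal progenitors. Every basal value lay above every radial value, at 0.71 on the log2 scale (SE 0.039, adjusted p = 1.81e-14). Cbx2 was at 24.0, 27.3, 23.3 and 20.03 CPM in radial glia and at 32.9, 43.5, 30.3 and 32.1 CPM in basal progenitors, with 0.59 (SE 0.071, adjusted p = 5.67e-08). Suz12 was at 170, 203, 151 and 155 CPM and at 196, 240, 201 and 196 CPM, higher within each library, with 0.34 (SE 0.052, adjusted p = 2.54e-06).

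Eed did not follow them. It was at 55.4, 62.3, 55.1 and 45.6 CPM in radial glia and at 46.0, 55.3, 45.7 and 45.4 CPM in basal progenitors, at −0.14 on the log2 scale (SE 0.062, adjusted p = 0.0461). That call was lost under 7 alternatives, among them without null replicate 1 (adjusted p = 0.0861) and without WT replicate 1 (adjusted p = 0.0810). Ezh1, Cbx6 and Cbx8 had intervals of −0.28 to 0.42, −0.07 to 0.19 and −0.14 to 0.37. Cbx7 was at 2.89, 2.33, 0.831 and 1.16 CPM in radial glia, from 25, 15, 4 and 4 UMIs, and among the alternatives run passed only without null replicate 1 (0.83, adjusted p = 0.0378). With cells in G1 alone, Ezh2 was the one member called (0.77, adjusted p = 2.75e-11), beside 39.1% of genes, at 348 ± 27.9 CPM in basal progenitors and 217 ± 23.7 in radial glia (SD, n = 4), while Suz12 was at −0.10 with an interval of −0.38 to 0.18. These cells came largely from basal clusters 10 and 24 and radial glia cluster 18, so stage and cluster were not told apart there.

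Across the 20 progenitor and neuron clusters with at least 20 cells in every library, Ezh2 was highest in basal cluster 2, led by replication-dependent histone genes, at 883 ± 36.9 CPM (SD, n = 4). It was lowest among the basal clusters in cluster 10, at 358 ± 43.8 CPM, beside 359.5 to 364 CPM in neuron clusters 6 and 1, from which it did not differ beyond the SD of the libraries. Suz12 and Eed had their highest and lowest basal levels in the same clusters, 2 and 10, at 259 ± 24.3 and 95.5 ± 10.1 CPM for Suz12 and at 62.7 ± 9.32 and 28.6 ± 3.51 CPM for Eed. Cbx2 had means of 44.1 ± 15.1 CPM in cluster 5, led by Gadd45g, Cdc6 and Ung, and 39.0 ± 5.89 CPM in cluster 2, with cluster 5 higher in both null libraries and cluster 2 in both WT libraries. Among neurons, Ezh2 ran from 222 ± 38.2 CPM in cluster 9, led by Gap43, to 364 ± 28.9 CPM in cluster 1, led by St18, and Cbx2 from 8.43 ± 3.78 to 21.98 ± 2.90 CPM in the same clusters, with cluster 1 above cluster 9 in 4 of 4 libraries for both. Suz12 and Eed varied less, from 84.5 ± 19.4 to 108 ± 15.5 CPM and from 23.7 ± 5.54 to 31.0 ± 4.399 CPM, and most neighbours in those orders did not differ beyond their SD.

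Cbx8 had its highest mean in neuron cluster 3, at 23.1 ± 1.48 CPM, followed by clusters 0, 19 and 11 at 19.4 to 20.6 CPM, and its lowest among neurons in cluster 16, at 11.6 ± 2.77 CPM. Cluster 19 lay above cluster 3 in null replicate 1 and WT replicate 2. Clusters 3, 0 and 11 shared Nxph1 among their leading genes. Cluster 16 overlapped radial glia cluster 18, at 14.6 ± 5.01 CPM, so the stage difference of Cbx8 was not shared by every cluster. Cbx7 was at 0.660 to 4.49 CPM over the clusters and is not ranked.

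**Figure D4:**
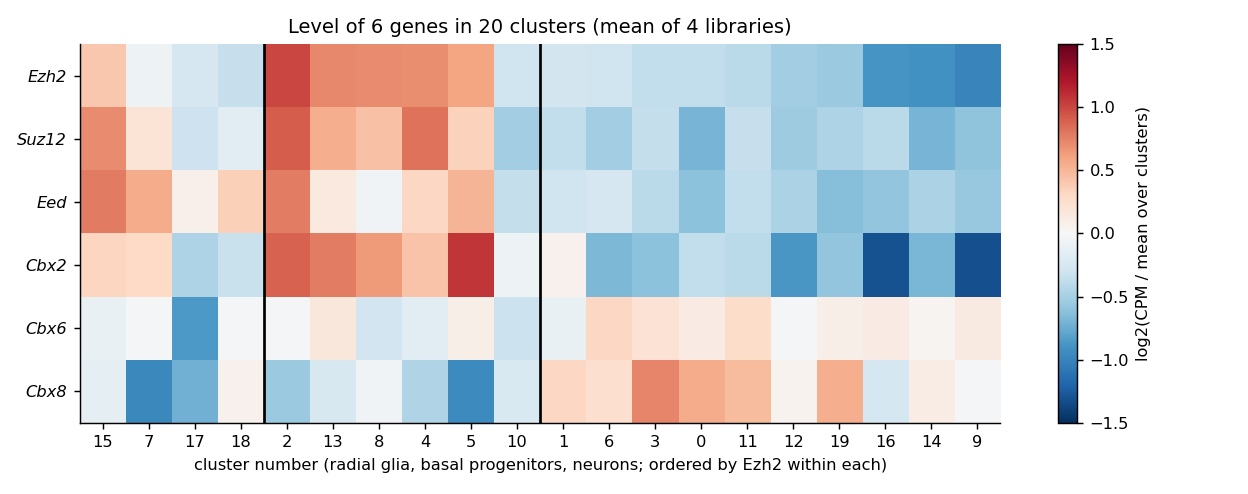
Level of 6 genes in 20 clusters (columns) as the log2 ratio of the CPM, averaged over 4 libraries, to the gene's mean over clusters; vertical lines part radial glia, basal progenitors and neurons, and clusters are ordered by Ezh2 within each. Ezh2, Suz12 and Eed are highest in cluster 2 among basal clusters and low in cluster 10, Cbx2 has like means in clusters 5 and 2 (44.1 and 39.0 CPM), and Cbx8 has its highest mean in neuron cluster 3.

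As a description over those 20 clusters and 8569 genes of at least 10 CPM, the genes with the most similar pattern by Pearson correlation of log2(CPM + 1) were Smc1a (0.98), Ncapd3 (0.97) and Haus3 (0.97) for Suz12, and Nudcd1 (0.97), Ssrp1 (0.96) and Timm50 (0.96) for Eed. For Ezh2 they were Rbbp8 (0.94), Sass6 (0.93) and Sf1 (0.93), and for Cbx2 Tardbp (0.94), Plagl2 (0.94) and Dhx15 (0.94). Smc1a encodes a cohesin subunit, Ncapd3 a condensin subunit and Sass6 a centriole protein. Cbx8 was most like A330076H08Rik (0.91), Wdr45 (0.90) and Cir1 (0.90), and Cbx6 like Nktr (0.88), Edem3 (0.88) and Dennd5b (0.87). The clusters share libraries and depth differs between them.

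The other subunits did not move as one. Of 46 tested genes for partners of the complexes, 24 were higher in neurons than in progenitors and 16 lower, beside 40.7% and 39.7% of all genes, with a median log2 fold change of 0.14 against 0.02. In the PRC1 core, 11 of 17 were higher and 3 lower. Scml4 rose by 1.07 (SE 0.13) on the log2 scale. Pcgf5 fell by 2.77 (SE 0.081), from 25.6 ± 3.84 to 3.84 ± 0.622 CPM (SD, n = 4), and Scml2 fell by 0.72 (SE 0.16). Ring1 and Rnf2, the ubiquitin ligases of PRC1, did not pass (adjusted p = 0.487 and 0.588).

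Of 9 tested PRC2 partners 4 were higher and 5 lower. Phf19, which guides the complex to chromatin, fell by 3.35 (SE 0.24), from 4.03 ± 1.18 to 0.392 ± 0.122 CPM, and Rbbp7, a histone chaperone of the core, by 1.55 (SE 0.039), from 164 ± 12.97 to 57.8 ± 5.61 CPM (SD, n = 4). Phf1, a relative of Phf19, rose by 1.12 (SE 0.12) and Jarid2, a DNA-binding partner, by 0.68 (SE 0.036). Of 10 variant PRC1 partners 5 were higher, led by Bcorl1 (0.83) and Auts2 (0.80), and 3 lower, led by L3mbtl2 (−0.73) and E2f6 (−0.62). Of 8 PR-DUB genes, whose complex removes the PRC1 mark, 3 were higher and 4 lower, from Asxl3 (2.11) and Mbd5 (0.70) to Asxl2 (−0.60) and Asxl1 (−0.71). The H3K27 demethylase gene Kdm6b rose by 1.03 (SE 0.035) and Kdm6a fell by 0.37 (SE 0.060).

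Against G1 progenitors, 21 of 45 partners were higher and 9 lower, beside 53.9% of genes called in either direction. Rbbp7 (−0.57, adjusted p = 2.10e-07) and Pcgf5 (−2.07, adjusted p = 5.07e-11) remained lower in neurons, and Asxl3 (1.86, adjusted p = 9.50e-16) remained higher. Rbbp4, Yaf2, L3mbtl2 and Asxl1 were lower against all progenitors and did not pass here (−0.07, −0.02, 0.01 and 0.21), as Scml4 did not (0.44). Phf19 was not tested there, being under the filter on low counts.

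Null was compared with WT to ask whether loss of St18 changes these genes. None of the 8 passed in neurons or in progenitors, where 0.0737% and 0.0294% of all genes did by edgeR's quasi-likelihood test. At an unadjusted p under 0.05 there were 2 members in neurons and 2 in progenitors, beside 16.9% and 17.2% of all genes. By DESeq2 0 of the 3 members with an adjusted p passed in neurons and 0 of 5 in progenitors, beside 6.58% and 6.47% of the genes with an adjusted p. Of the CPM values given above, 5 of the 8 genes did not overlap between genotypes in neurons and 7 in progenitors, but the same holds for 55.6% and 59.6% of all genes, with 42.2% and 48.5% higher in null. The fold changes below are scaled for composition (TMM), which takes up a median shift of 0.14 in neurons and 0.19 in progenitors (log2) over all genes.

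Cbx7, at 2.01 and 2.84 CPM in null neurons and 1.999 and 2.69 in WT neurons, overlapped between genotypes in CPM. Its log2 fold change was −0.10 with a 95% interval of −0.75 to 0.55 (adjusted p = 0.889) in neurons and 0.31 with an interval of −0.28 to 0.91 (adjusted p = 0.544) in progenitors. Without null replicate 2 the estimate for neurons was −0.31 (95% interval −1.13 to 0.51) and that for progenitors 0.14 (95% interval −0.58 to 0.85). With every cell thinned to 3000 UMIs, Cbx7 was in 0.585% and 0.476% of null neurons and 0.742% and 1.003% of WT neurons. These shares did not overlap, and how many genes do so by this measure was not counted. By CPM without thinning, 55.6% of all genes did not overlap in neurons. The thinned estimate of Cbx7 for neurons was −0.85 (95% interval −1.66 to −0.05, adjusted p = 0.271), beside 0.936% of all genes called. At these shares, near the detection limit, no change was read. Cbx6 was higher in both null libraries, at 51.9 and 60.7 against 40.1 and 43.1 CPM in neurons, with 0.29 (95% interval 0.02 to 0.56, adjusted p = 0.271) there and 0.28 (adjusted p = 0.254) in progenitors. Ezh1 in neurons was at 0.42 (95% interval 0.04 to 0.80, adjusted p = 0.258) and Cbx8 in progenitors at −0.41 (95% interval −0.73 to −0.08, adjusted p = 0.222).

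For Ezh2, Suz12, Eed and Cbx2 every interval included 0. Ezh2 had a log2 fold change of 0.06 (95% interval −0.20 to 0.32) in neurons and −0.09 (95% interval −0.37 to 0.18) in progenitors, Suz12 −0.01 and −0.04, Eed 0.03 and −0.02, and Cbx2 0.17 and 0.06. Scaled by library totals alone, Ezh2, Suz12 and Eed in progenitors and Suz12 and Cbx7 in neurons changed sign. The make-up of the neurons differed too, with cluster 3 at 461 and 550 cells in null and 184 and 102 in WT and cluster 0 at 526 and 100 against 707 and 500. With equal numbers of cells of each cluster 0 of the 8 passed, beside 0.566% of all genes in neurons and 0.0153% in progenitors, and with male cells alone 0 of the 8, beside 0.00802% and 0%.

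Single libraries changed these calls. Without null replicate 2, the library with the highest St18, 0 of 8 passed in either class, beside 2.76% of genes in neurons and 11.4% in progenitors. Without null replicate 1, Cbx6 passed in neurons (log2 fold change 0.37), and Cbx6 (0.35), Cbx8 (−0.48) and Ezh2 (−0.17) passed in progenitors. The value of Ezh2 is after scaling for composition. Its CPM in progenitors of null replicate 2 lay above both WT libraries, at 664 against 612 and 636. In those fits 19.7% and 29.6% of all genes were called, and the lone null library is assumed to vary like the WT libraries.

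**Figure D5:**
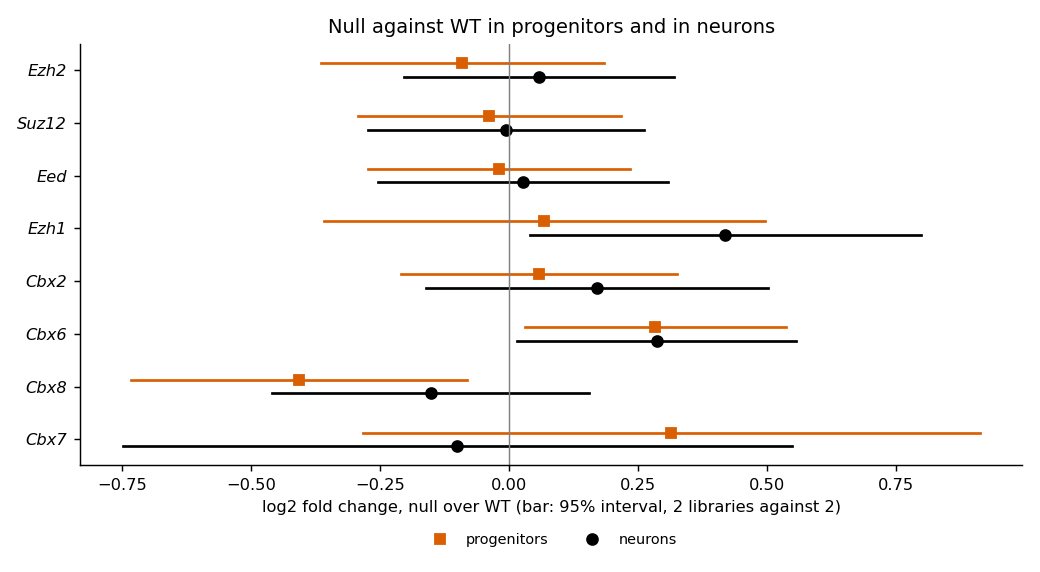
Log2 fold change of null over WT (horizontal axis) with its 95% interval for each gene in progenitors (squares) and in neurons (circles), 2 libraries against 2. Most intervals include 0, those of Ezh1 in neurons, Cbx8 in progenitors and Cbx6 in both do not, and no adjusted p passed the threshold.

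Whether the genotype difference itself differed between neurons and progenitors was tested as an interaction with the library as a block. By edgeR 0 of 8 passed, beside 0.939% of all 14381 genes, and 1 had an unadjusted p under 0.05, beside 8.47% of all genes, and by DESeq2 0 of the 2 with an adjusted p passed, beside 0.819%. Ezh2 had the smallest p, with a difference of 0.19 on the log2 scale (95% interval 0.06 to 0.31, adjusted p = 0.208). For Cbx7 the difference was −0.38 with an interval of −1.13 to 0.38, and −1.49 with every cell thinned to 3000 UMIs (95% interval −2.69 to −0.31, adjusted p = 0.561), beside 0.324% of all genes called. Without null replicate 2, 0 of 8 passed by edgeR and 0 had an unadjusted p under 0.05, beside 0.0209% of all genes called, and the difference of Ezh2 was 0.11. Of the 46 partner genes 0 passed in the interaction, with 3 at an unadjusted p under 0.05, beside 8.47% of all genes, and 0 passed in neurons or in progenitors, with 9 and 10 at an unadjusted p under 0.05, beside 16.9% and 17.2% of all genes. Single libraries changed the partner calls, as they did those of all genes. Without null replicate 2, 0 of 45 partners passed in neurons, beside 2.76% of all genes, and 0 of 46 in the interaction, beside 0.0209%. In progenitors 4 of 46 then passed as higher and 3 as lower, beside 11.4% of all genes. Without null replicate 1, 11 of 45 passed as higher and 1 as lower in neurons, and 13 of 46 as higher and 2 as lower in progenitors, beside 19.7% and 29.6% of all genes. Without WT replicate 1, 1 of 46 passed in the interaction, beside 1.21% of all genes.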

How the data were processed

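Libraries were aligned and counted by the authors with Cell Ranger 5.0.1 per the labels, while the file headers name version 4, on GRCm38 (annotation version not given in the sources used here). The authors deposited raw UMI counts for all barcodes, unnormalised. Cells needed 3000 UMIs, 200 genes and at most 10% mitochondrial UMIs. Scrublet (scanpy 1.11.5) called at most 0.0443% doublets by its own threshold, so the cells with the highest scores, 120 to 352 per library, were left out, but only after clustering. Seurat 5.3.0 clustered all cells, these included (2000 variable genes less 2 of the Polycomb list, S minus G2M difference regressed, 49 components, Louvain resolution 1.4, 27 clusters). Classes were named from marker lists in the cells kept, with a score margin of 0.1 set after the scores were seen. Members and lists were chosen with earlier results of these data known.

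For each class, counts of a library's cells were added up and tested with edgeR 4.0.16 (quasi-likelihood, TMM, filterByExpr, Benjamini-Hochberg at 0.05 over all genes, R 4.3.3), with the library as a block between classes of the same libraries. Scripts ran in Python 3.11.15 with numpy 2.4.6, scipy 1.17.1 and pandas 2.3.3, and were tested on simulated data. CPM is UMIs of a gene per 1000000 UMIs of the class. DESeq2 1.42.0, RLE factors, no filter, thinning, G1 cells and libraries left out were alternatives. The G1 comparison without cluster 10 and the UMI ratios in G1 were chosen after seeing the data. All 8 members are named. Partners are named as the called genes with the largest and smallest change in each list (up to 4), other genes as the 3 with the highest correlation with a member over clusters, and HP1 and target genes from 10 CPM, with UMI counts alone for Cdkn2a and Cdkn2b below it. Ring1, Rnf2, Rbbp4 and Yaf2 were named after their values were seen. One partner gene that the rule names is not reported here. P-values measure the spread between the 4 pools.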

Additional observations from a re-analysis of the deposited data

How the results depend on the processing

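Of 518 alternative values for the members, 444 kept direction and side of the threshold, 14 lost the call, 5 gained one and 55 changed sign, most of the last from values near 0 by genotype. DESeq2 gave no adjusted p for 5 members in neurons, 3 in progenitors and 6 in the interaction. The cause of the changes below was not tested. For neurons against progenitors with G1 progenitors alone, 6664 genes and 3 members were called, with Ezh1 at −0.10, Ezh2 at 0.14 and Suz12 at 0.15, and without cluster 10 also, 6586 genes and 3 members, with Ezh1 at −0.077, Ezh2 at 0.37, Suz12 at 0.12 and Cbx7 at −0.18. In G1 cells the log2 ratio of neurons over progenitors went from 1.80 to −0.24 for Ezh1 per Ezh2 UMIs and from 1.89 to 0.84 for Cbx8 per Cbx2 UMIs. Both rest on few UMIs in G1 progenitors. For basal progenitors against radial glia in G1, 3078 genes and 1 member were called, with Cbx6 at −0.32, Cbx8 at −0.49 and Suz12 at −0.099. With no replicate block, 8855 and 5703 genes and 6 and 3 members were called in these comparisons, with Cbx6 (adjusted p = 0.242) and Eed (adjusted p = 0.237) lost. No paired analysis was possible because the null and WT replicate numbers follow sample order and pair no libraries.

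In the following, values by genotype are log2 fold changes of null over WT and gene counts are those called. With library totals in place of TMM, the interaction of Cbx6 was −0.042, of Eed −0.0011 and of Suz12 −0.016, neurons had Cbx7 at 0.049 and Suz12 at 0.15, progenitors had Eed at 0.18, Ezh2 at 0.10 and Suz12 at 0.16, and 57, 212 and 227 genes were called in the interaction, neurons and progenitors. With no filter on low counts, the interaction was −0.048, −0.0073 and −0.023 for Cbx6, Eed and Suz12, Suz12 in neurons was 0.0043, Cbx7 between stages −0.0067, and 59 and 911 genes were called in neurons and progenitors. With cells thinned to 3000 UMIs, Cbx6 between progenitor types was −0.038, the interaction of Suz12 −0.041, and Eed, Ezh1 and Suz12 in progenitors 0.053, −0.16 and 0.066, with 41, 113 and 134 genes in the interaction, neurons and progenitors, and 5 pairs of gene and class near the detection limit. With male cells, Cbx2 and Eed in progenitors were −0.0055 and 0.028 and Cbx7 and Suz12 in neurons 0.14 and 0.028, and edgeR called 1 gene in neurons and 0 in progenitors (1721 and 1970 at an unadjusted p under 0.05). With at least 5000 UMIs, Cbx7 was −0.14 between stages and 0.13 in neurons, and 2 genes were called in progenitors. With doublets kept, Cbx7 between stages was −0.038 and Eed in neurons −0.0094. With RLE factors, Cbx7 between stages was −0.012 and 64 genes were called in the interaction. With equal cells of each cluster, Cbx7 and Eed in neurons were 0.23 and −0.035, with 71 and 2 genes in neurons and progenitors. DESeq2 called 31, 287 and 334 genes in the interaction, neurons and progenitors.

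Leaving out each library in turn, Cbx7 between stages ran from −0.094 to 0.062. In neurons 62 to 2686 genes and 0 to 1 members were called, with Cbx7 from −0.31 to 0.11, Eed from −0.045 to 0.12 and Suz12 from −0.10 to 0.11. In progenitors 41 to 4081 genes and 0 to 3 members were called, with Cbx2 from −0.052 to 0.17, Ezh1 from −0.075 to 0.21, Eed from −0.067 to 0.031 and Suz12 from −0.11 to 0.036. In the interaction 3 to 181 genes were called, with Cbx6 from −0.043 to 0.10, Eed from −0.00050 to 0.14 and Suz12 from −0.015 to 0.080. Depth limits Cbx7 and Ezh1 most, and 2 libraries per genotype limit every comparison of null with WT.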

Other observations

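The chromobox genes of heterochromatin protein 1, which bind another histone mark than the Polycomb ones, were also lower in neurons. Cbx1 went from 613 ± 47.7 to 398 ± 31.7 CPM, Cbx3 from 670 ± 78.8 to 494 ± 64.3 CPM and Cbx5 from 512 ± 39.4 to 318 ± 19.2 CPM (SD, n = 4), with log2 fold changes of −0.68, −0.49 and −0.74. Against G1 progenitors they were −0.32 (adjusted p = 2.07e-07), −0.18 (adjusted p = 0.000661) and −0.02 (adjusted p = 0.792). Without cluster 10 they were 0.03 (adjusted p = 0.661), −0.05 (adjusted p = 0.339) and −0.13 (adjusted p = 0.0422).

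Among classical Polycomb targets, the Hox genes, Cdkn2a and Cdkn2b had few or no UMIs. Of 39 Hox genes 35 had no UMI in progenitors or neurons, and 0 reached 1 CPM in any library. The cell cycle inhibitor gene Cdkn2a had 8, 2, 9 and 0 UMIs in progenitors and 0, 1, 0 and 0 in neurons, and Cdkn2b 3, 7, 2 and 0 and 1, 1, 0 and 0. Cdkn1c was expressed, at 112 ± 16.3 CPM in progenitors and 138 ± 9.91 CPM in neurons (SD, n = 4), with a log2 fold change of 0.25 (adjusted p = 0.000104) that turned to −1.03 against G1 progenitors (adjusted p = 2.68e-18) and −1.27 without cluster 10. Basal cluster 24 (102 cells, 96.1% called G1) has Cdkn1c among its leading genes, and its part in this turn was not tested. The call against all progenitors was lost with every cell thinned to 3000 UMIs (0.049) and without the library block (0.23).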
